A study of Mus musculus with 13 samples.

Results

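Effector memory CD8+ T cells (Tem), isolated at day 45 after infection, were set against short-lived effector CD8+ T cells (Tsle), isolated at day 7, to describe which effector features the lasting cells shared with the earlier ones and which separated them. The members were the 136 Tem cells and the 89 day 7 Tsle cells, 225 of the 1449 single cells in the series, taken by the population name at the head of each column. Both populations began as CD8+ CD45.1+ cells transgenic for the OT-1 receptor, which recognises ovalbumin, so all carried 1 antigen specificity. In each case 5000 such cells were transferred into congenic CD45.2 C57/B6J mice, which were infected intravenously 1 day later with 5000 colony-forming units of Listeria monocytogenes expressing ovalbumin. Spleen cells were stained for CD8 and CD44 and for CD4, F4/80, CD11b and CD11c before single cells were sorted. Neither the gates that defined Tem and Tsle nor the number and age of the mice nor the array of each cell is stated in the labels. Klrg1, Il7r and Cd44 encode surface proteins that may have served as gates, in which case their difference was set by the sort.

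Each population was 1 sample. Cells of 1 sample are not replicates, so the differences below are described by their size and were not tested. Shares of cells are followed by exact (Clopper-Pearson) 95% intervals, which cover counting error only. Where no cell was above 0, "up to" gives 3 cells of the total, a limit on how many cells would be detected and not on how many hold the transcript. Assays were counted by size, at a difference of at least 20 percentage points in share or at least 1 cycle in the median of the detected cells, and every signed difference is Tem minus Tsle.

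During an acute infection, activated CD8+ T cells multiply and split into cells that mostly die after the pathogen is cleared and cells that persist. Short-lived effectors are known for KLRG1 on their surface, for killing and cytokine release, and for the transcription factors T-bet, Zeb2 and Blimp-1. Effector memory cells persist without the receptors that bring naive and central memory cells into lymph nodes, patrol blood and tissues, and are ready for rapid effector function. TCF-1, the product of Tcf7, supports self-renewal and is low in terminal effectors, and the interleukin-7 receptor provides a survival signal to resting T cells.

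The deposited values grow with the amount of template, on the scale of PCR cycles, and hold 0 for no detection, although the series text calls them Ct. If every PCR cycle were fully efficient, 1 cycle more would mean that the template had doubled. A cell counts as detected where its value is above 0. The measured panel had 95 assay rows for 94 genes, with Il2 in both of its rows at 0 in all Tem and Tsle cells. Tem cells had a median of 11 assays above 0 (range 6 to 20) and Tsle cells 13 (range 3 to 24). The 18S ribosomal RNA assay R18s and the cytoskeletal and glycolytic genes Actb and Gapdh were above 0 in every cell of both populations.

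The columns of each population fell into consecutive stretches of different height. Cutting the columns at the largest step of R18s gave 70 and 66 Tem cells, with R18s medians of 26.7 and 24.9 cycles, and 60 and 29 Tsle cells, with medians of 26.1 and 28.1. Actb stepped from 18.2 to 16.3 in Tem and from 20.9 to 18.7 in Tsle. The chemokine gene Ccl5 stepped down in Tem (15.0 to 12.6 cycles) but up in Tsle (15.6 to 18.8), while Lgals1, which encodes galectin-1, stepped down in Tem (14.4 to 11.3) and stayed at 16.1 and 16.02 in Tsle. The median number of assays above 0 was 10 and 11 in the Tem stretches and 15 and 11 in the Tsle stretches. Within Tsle, 6 assays were at least 20 points lower in share in the second stretch than in the first (Lgals1, Zeb2, Klrg1, Klrc1, Zfp281 and Ifngr1), and within Tem 1 was higher (Tcf7). Larger differences between the populations are therefore given with their range over the 4 pairings of a Tem with a Tsle stretch, written "between pairings".

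**Figure D1:**
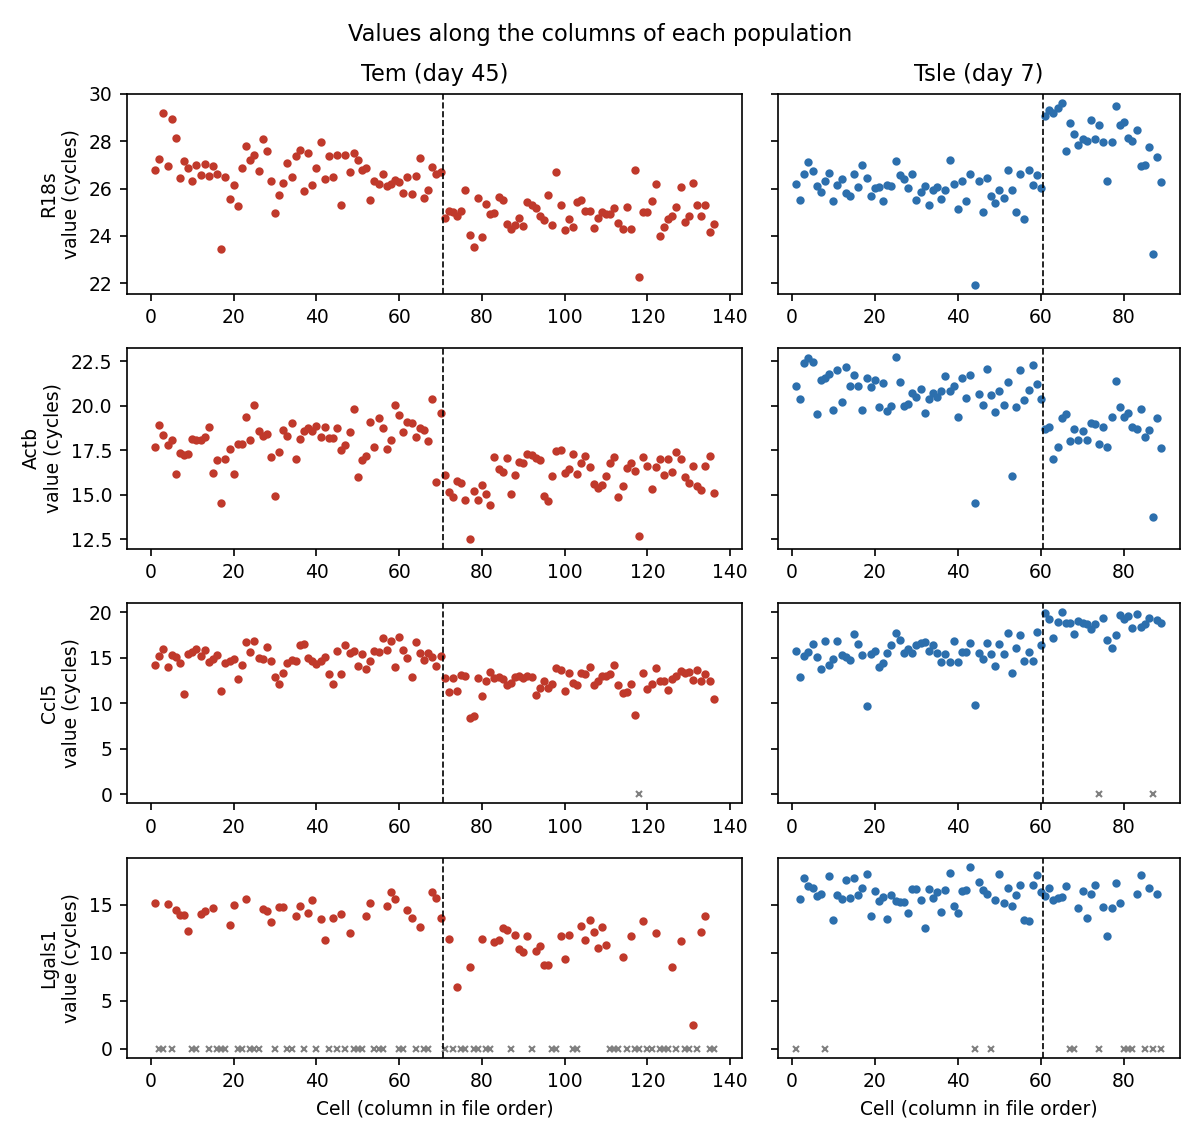
Deposited values in cycles of R18s, Actb, Ccl5 and Lgals1 (rows) for each cell in file order (columns of the plot: 136 Tem cells in red, 89 day 7 Tsle cells in blue); crosses are cells at 0 and the dashed line is the largest step of R18s. R18s, Actb and Ccl5 change height at the step in both populations, and Ccl5 moves down in Tem but up in Tsle.

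Markers of CD8+ T cells were checked first. Ptprc, which encodes the leukocyte antigen CD45, was detected in 83.1% of the Tem cells (75.7 to 89.0%) and 91.0% of Tsle cells (83.1 to 96.0%), and the coreceptor gene Cd8a in 36.0% (28.0 to 44.7%) and 37.1% (27.1 to 48.0%). Thy1, a surface marker of T cells, was found in 20.6% (14.1 to 28.4%) and 39.3% (29.1 to 50.3%). Its intervals did not overlap, and its difference ran from -25.1 to -15.2 points between pairings. At least 1 of these 3 was above 0 in 122 of 136 Tem and 86 of 89 Tsle cells. The helper and regulatory T cell genes Cd4 and Foxp3 were at 0 in all 225 cells (up to 2.21% of Tem and 3.37% of Tsle cells), and Gata3 was found in 2 Tem and 3 Tsle cells. Transcript of Cd44, whose protein was stained in the sort, was found in 2 cells of each population. No B cell or myeloid marker was on the panel.

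Over the whole panel, Tem cells had Tcf7 in far more cells than Tsle cells did and had Lgals1, Zeb2 and Klrg1 in fewer. Of the 95 assay rows, 1 was at least 20 points higher in Tem (1.05% of rows) and 4 were at least 20 points lower (4.21%), of which these 3 are described. A further 3 were 10 to 20 points higher, 9 were 10 to 20 points lower, and 78 differed by under 10 points. Lower shares in Tem were the more frequent direction: 55 rows were lower, 16 higher and 24 equal, of which 21 were at 0 in both populations. The median difference over all rows was -1.51 points, and Tem cells also had fewer assays above 0 per cell. Nearest to the 20-point limit were Klrg1 on the inside (-23.7 points) and Thy1 on the outside (-18.7 points).

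**Figure D2:**
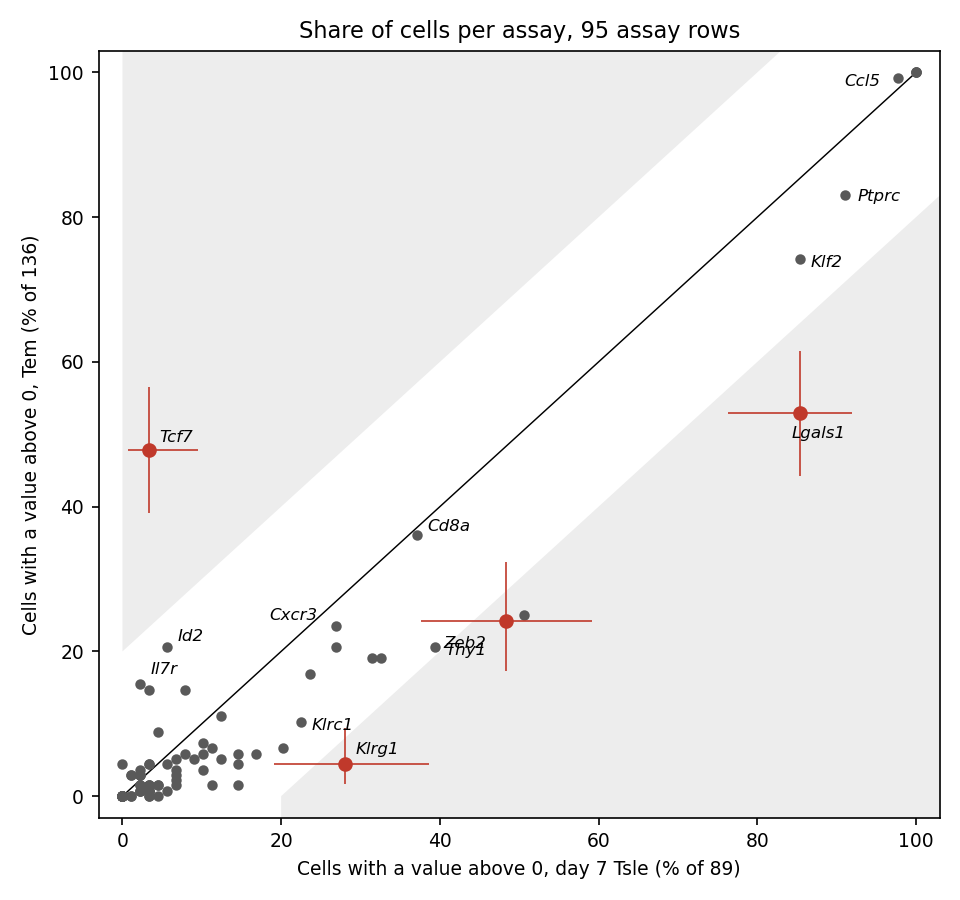
Share of cells with a value above 0 in day 7 Tsle (x axis, percent of 89 cells) and Tem (y axis, percent of 136 cells) for 95 assay rows, each a point; the line marks equal shares, grey areas mark differences over 20 points, and red bars are exact 95% intervals. Tcf7 lies alone in the upper grey area at 47.8% against 3.37%, and Lgals1, Zeb2 and Klrg1 are marked in the lower one.

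Among the features common to both populations, 7 assays were found in at least 50% of cells of each: the 3 reference transcripts R18s, Actb and Gapdh, Ccl5, Klf2, Ptprc and Lgals1. Ccl5, a chemokine stored by effector and memory CD8+ T cells, was detected in 135 of 136 Tem cells (99.3%, 95.97 to 99.98%) and 87 of 89 Tsle cells (97.8%, 92.1 to 99.7%), against 2 of 149 naive cells (1.34%, 0.163 to 4.76%), which had not been activated by the infection. Ccl5 was also found in 100% of central memory cells and 95.2% of day 7 memory precursors, so its presence was not particular to Tem and Tsle. Its share was near complete in all 4 stretches, the lowest being 93.1% in the 29 second-stretch Tsle cells, so the presence of Ccl5 did not separate the populations. Klf2, a factor that maintains recirculation and quiescence, was detected in 74.3% of the Tem cells (66.1 to 81.4%) and 85.4% of Tsle cells (76.3 to 92.0%). Central memory cells had Klf2 in 81.9% of cells and day 7 memory precursors in 77.4%. In the cells that had it, Klf2 ranged from 11.5 to 18.1 cycles in Tem and from 12.3 to 18.6 in Tsle, with medians of 16.1 in both. Between pairings its median difference ran from -1.27 to 1.42 cycles and its share difference from -20.3 to 2.71 points, so the equal medians hold for the pooled cells.

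The chemokine receptor Cxcr3, which guides effector cells to inflamed tissue, was detected in 23.5% of the Tem cells (16.7 to 31.6%) and 27.0% of Tsle cells (18.1 to 37.4%). Il2rb, the receptor chain shared by interleukin-2 and interleukin-15, was found in 20.6% (14.1 to 28.4%) and 27.0% (18.1 to 37.4%). Between pairings Cxcr3 ran from -12.6 to 7.68 points and Il2rb from -7.59 to -5.45. For both genes the intervals of Tem and Tsle overlapped widely, and naive cells had them in 5.37% and 19.5% of cells. The lymph node homing receptor Ccr7 was rare in each, at 6 of 136 Tem cells (4.41%, 1.64 to 9.36%) and 0 of 89 Tsle cells (up to 3.37%), against 34.9% of naive cells (27.3 to 43.1%).

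The genes found in fewer Tem cells were led by Lgals1. It was above 0 in 72 of 136 Tem cells (52.9%, 44.2 to 61.6%) and 76 of 89 Tsle cells (85.4%, 76.3 to 92.0%), a difference of -32.5 points, with naive cells at 4.70% (1.91 to 9.44%). Between pairings of stretches the difference ran from -40.5 to -15.9 points. Tsle had Lgals1 in 93.3% of the first and 69.0% of the second stretch, while both Tem stretches lay near 53% (52.9 and 53.0%). Values were weaker in the second Tem stretch than in the first, and with detection counted only above 12 the pooled difference was -50.4 points. Values also differed: Tem cells with Lgals1 ran from 2.52 to 16.4 cycles (median 12.9) and Tsle cells from 11.8 to 19.0 (median 16.1). Lgals1 was thus lower in Tem by share and by value, and it was so in every pairing of stretches.

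Zeb2, a transcriptional repressor that promotes terminal effector differentiation, was detected in 33 of 136 Tem cells (24.3%, 17.3 to 32.4%) and 43 of 89 Tsle cells (48.3%, 37.6 to 59.2%). The difference of -24.0 points ran from -32.3 to -8.77 between pairings, and naive cells had it at 1.34% (0.163 to 4.76%). Values in the cells that had it overlapped, from 1.95 to 16.2 cycles in Tem (median 14.6) and from 13.3 to 17.6 in Tsle (median 15.6). The Tem share lay within the interval of day 7 memory precursors (19.4%, 10.4 to 31.4%) and above that of central memory cells (7.97%, 4.05 to 13.8%).

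Klrg1, the inhibitory receptor that marks short-lived effectors, was detected in 6 of 136 Tem cells (4.41%, 1.64 to 9.36%) and 25 of 89 Tsle cells (28.1%, 19.1 to 38.6%), and in 0 of 149 naive cells (up to 2.01%). Of the Tsle values 72.0% lay at or below 12 cycles (range 7.02 to 14.0), and with detection counted only above 12 the difference shrank from -23.7 to -4.19 points. Between pairings it ran from -31.97 to -8.08 points.

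These 3 lower shares rested in large part on the first 60 Tsle columns. Against the 29 second-stretch Tsle cells alone, none of the 3 was 20 points apart for either Tem stretch, and Thy1 was the assay at least 20 points lower. The number of assays per cell moved with this: 15 in the first and 11 in the second Tsle stretch. Among cells with 10 to 16 assays above 0 (90 Tem, 67 Tsle), the differences were -24.3 points for Lgals1, -21.4 for Zeb2 and -20.9 for Klrg1. This window narrowed the gap in assays per cell without closing it, with medians of 12 in Tem and 13 in Tsle.

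Of the 6 cytotoxic and killer-cell genes measured, 1 was at least 20 points lower (Klrg1) and none higher, with a median difference of -5.12 points. Over all 95 rows, 4 were that much lower (4.21%) and the median difference was -1.51 points. Klrc1, which encodes the receptor NKG2A, was detected in 14 of 136 Tem cells (10.3%, 5.74 to 16.7%) and 20 of 89 Tsle cells (22.5%, 14.3 to 32.6%), and in 0 of 149 naive cells (up to 2.01%). Day 7 memory precursors had Klrc1 in 33.9% of cells and central memory cells in 18.8%. Of the 20 Tsle cells, 19 were in the first stretch (31.7 against 3.45%), and the difference ran from -21.7 to 7.16 points between pairings. Gzmb, which encodes granzyme B, was detected in 5.15% of the Tem cells (2.09 to 10.3%) and 12.4% of Tsle cells (6.33 to 21.0%), against 7.38% of naive cells (3.74 to 12.8%), so the Tem share was not above that of naive cells. Ifng, the interferon gamma gene, was found in 5 Tem and 2 Tsle cells, the granzyme inhibitor Serpinb9 in 2 and 4, and Serpinb6b in none.

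In single cells, at least 1 of Gzmb, Ifng, Klrc1, Klrg1 and Serpinb9 was detected in 31 of 136 Tem cells (22.8%, 16.04 to 30.8%) and 46 of 89 Tsle cells (51.7%, 40.8 to 62.4%). At least 2 were found together in 3 Tem and 14 Tsle cells. Without Klrg1, which may have been a gate, the shares were 18.4% (12.3 to 25.9%) and 34.8% (25.04 to 45.7%), and naive cells had 8.05% (4.23 to 13.6%). Day 7 memory precursors had 43.5% (31.0 to 56.7%) and central memory cells 29.0% (21.6 to 37.3%), so this share was not particular to Tsle. The excess of Tsle over Tem lay in the first Tsle stretch. With all 5 genes the Tsle share was 63.3% there (49.9 to 75.4%) and 27.6% in the second (12.7 to 47.2%), against 22.9% and 22.7% in the Tem stretches. Of the 5 chemokine genes none was 20 points apart, beside 1 higher (1.05%) and 4 lower (4.21%) of all 95 rows. Their median difference was 0 points. The inducible chemokines Ccl3 and Ccl4 were found in 4.41% and 5.15% of Tem cells and in 5.62% and 6.74% of Tsle cells, with Xcl1 and Cxcl10 at 0 in all 225.

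Tcf7 was the gene that separated the populations most. It was detected in 65 of 136 Tem cells (47.8%, 39.2 to 56.5%) and 3 of 89 Tsle cells (3.37%, 0.701 to 9.54%), a difference of 44.4 points. The 65 Tem values ran from 13.0 to 17.5 cycles (median 15.6) and the 3 Tsle values from 15.6 to 17.0 (median 16.5). Too few Tsle cells had Tcf7 to compare its height, and the difference described here is in how many cells had it. None of the 60 first-stretch Tsle cells had it (up to 5.00%) and 3 of 29 in the second stretch did (10.3%, 2.19 to 27.4%). In Tem it was found in 37.1% of the first (25.9 to 49.5%) and 59.1% of the second stretch (46.3 to 71.0%). The difference was 26.8 to 59.1 points between pairings, and 47.7 points among cells with 10 to 16 assays, so Tcf7 was higher in Tem in every one of these settings.

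Of the 11 naive and memory factors measured, 1 was at least 20 points higher (Tcf7) and none lower, with a median difference of -1.98 points. Over all 95 rows, 1 was that much higher (1.05%) and 4 lower (4.21%), with a median difference of -1.51 points. Counts this small say little about a list. Lef1, the partner of Tcf7, was found in 5 Tem cells (3.68%, 1.20 to 8.37%) and 9 Tsle cells (10.1%, 4.73 to 18.3%). The forkhead factor Foxo1, which sustains Il7r and Klf2, was detected in 4.41% of the Tem cells (1.64 to 9.36%) and 14.6% of Tsle cells (8.01 to 23.7%). The zinc finger gene Zfp281 was found in 19.1% (12.9 to 26.7%) and 32.6% (23.0 to 43.3%). Bcl6 was found in 4 Tem and 2 Tsle cells and Id3 in none. For Lef1, Foxo1 and Zfp281 the intervals of the populations overlapped, and the sign of the difference turned between pairings, from -10.3 to 0.84 points for Lef1, from -15.7 to 1.10 for Foxo1 and from -22.9 to 3.97 for Zfp281.

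Of the 8 effector factors measured, 1 was at least 20 points lower (Zeb2) and none higher, beside 4 (4.21%) and 1 (1.05%) of all 95 rows. Their median difference was -3.59 points, against -1.51 over all rows. By any amount, 7 of the 8 were lower in share, beside 55 of the 74 rows detected in either population. Eomes, a T-box factor of effector and memory cells, was detected in 8 Tem cells (5.88%, 2.57 to 11.3%) and 15 Tsle cells (16.9%, 9.75 to 26.3%). Stat4, which carries interleukin-12 signals, was found in 5.88% and 14.6% of cells (-15.7 to 4.13 points between pairings), and Prdm1, which encodes Blimp-1, in 3 Tem and 6 Tsle cells. Tbx21, Irf4 and Irf8 were each found in 1 Tem and 3 Tsle cells, too few to compare. The exception in direction was Id2, an inhibitor of E proteins that favours effector cells, at 28 Tem cells (20.6%, 14.1 to 28.4%) and 5 Tsle cells (5.62%, 1.85 to 12.6%). All its Tem values were at or below 8.63 cycles (median 5.03), well under those of other genes, and its difference ran from -3.61 to 27.1 points between pairings.

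Among the 4 cytokine receptor genes none was 20 points apart, beside 1 higher (1.05%) and 4 lower (4.21%) of all 95 rows. Their median difference was 0.23 points. Il7r was detected in 21 of 136 Tem cells (15.4%, 9.82 to 22.6%) and 2 of 89 Tsle cells (2.25%, 0.273 to 7.88%), with intervals that did not overlap and a difference of 8.67 to 16.9 points between pairings. In the Tem cells that had it, Il7r ran from 14.8 to 17.7 cycles (median 16.2), and the 2 Tsle cells lay at 15.2 and 16.4. Il2ra, the high-affinity interleukin-2 receptor chain of activated cells, was detected in 14.7% of the Tem cells (9.22 to 21.8%) and 7.87% of Tsle cells (3.22 to 15.5%). The interferon gamma receptor gene Ifngr1 was found in 19.1% (12.9 to 26.7%) and 31.5% (22.0 to 42.2%), and its difference ran from -25.95 to 12.4 points between pairings.

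The remaining lists held no assay 20 points apart, which says little about them, as few of all 95 rows were (1.05% higher, 4.21% lower). Of 7 activation and inhibition genes, Cd28 was detected in 16.9% of the Tem cells (11.0 to 24.3%) and 23.6% of Tsle cells (15.2 to 33.8%), and Pdcd1, Lag3 and Tnfrsf9 were at 0 in all 225 cells, so no sign of these inhibitory or costimulatory transcripts was detectable in either (up to 2.21% of Tem and 3.37% of Tsle cells). Growth genes were rare, with Myc in 4 Tem and 1 Tsle cells, Mtor in 6 and 3, and Hk2 in none. Among 3 apoptosis genes, Bnip3l, which acts in removal of mitochondria, was detected in 2 Tem cells (1.47%, 0.179 to 5.21%) and 13 Tsle cells (14.6%, 8.01 to 23.7%). Of 5 signalling genes, Rela, an NF-kappaB subunit, was detected in 6.62% of the Tem cells (3.07 to 12.2%) and 20.2% of Tsle cells (12.4 to 30.1%). Intervals did not overlap for Bnip3l and Rela, whose differences ran from -16.9 to -5.38 and from -20.5 to -3.19 points between pairings. The Bnip3l values were weak, with medians of 11.7 cycles in Tem and 10.3 in Tsle, which limits the reading of its shares.

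Where both populations had a transcript, most medians were lower in Tem, with the largest differences in Lgals1, Actb and Ccl5. Of the 95 rows, 18 had at least 10 detected cells in both populations. Of these 18, 5 were at least 1 cycle lower in Tem (27.8%) and 1 at least 1 cycle higher (5.56%), and the median of the 18 differences was -0.56 cycles. Lgals1 differed by -3.20 cycles, Actb by -3.08, Ccl5 by -2.98 and Thy1 by -1.12. The reference transcripts R18s and Gapdh differed by -0.66 and -0.76 cycles, and Gapdh ranged from 1.86 to 18.7 cycles within Tem alone. Between pairings both differences turned sign, from -3.19 to 0.58 cycles for R18s and from -2.56 to 1.05 for Gapdh.

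Actb values ran from 12.5 to 20.4 cycles in Tem (median 17.1) and from 13.8 to 22.7 in Tsle (median 20.2). Its difference was negative in all 4 pairings of stretches, from -4.59 to -0.53 cycles. Ccl5 ran from 8.41 to 17.3 cycles in Tem (median 13.4) and from 9.64 to 20.0 in Tsle (median 16.4), and its difference from -6.23 to -0.56 cycles between pairings. For Lgals1 it ran from -4.75 to -1.60 cycles, so that Lgals1 was at least 1 cycle lower in all 4 pairings. Centred on R18s in each cell, the differences were -2.70 cycles for Lgals1, -2.07 for Ccl5 and -2.92 for Actb, and centred on Actb and Gapdh they were -1.19 for Lgals1 and -0.77 for Ccl5. Centred on Actb and Gapdh, which were themselves lower in Tem, 9 of the 18 medians were at least 1 cycle higher in Tem and 2 at least 1 cycle lower, so the split of directions depends on the reference. On that scale Thy1 turned to 0.91 cycles higher, and Zeb2, Ptprc and Klf2 to 0.59, 1.61 and 1.79.

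Cxcr3 was the gene at least 1 cycle higher in Tem. It ran from 10.5 to 18.2 cycles in 32 Tem cells (median 16.4) and from 10.2 to 15.9 in 24 Tsle cells (median 13.4), a difference of 3.02 cycles. The 17 first-stretch Tsle cells had a median of 12.7 and the 7 second-stretch cells 15.5, so the size rests on the first stretch. Thy1, lower in Tem over all cells, was 1.21 cycles higher between the first stretches. Ptprc and Klf2 differed by -0.17 and -0.02 cycles.

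**Figure D3:**
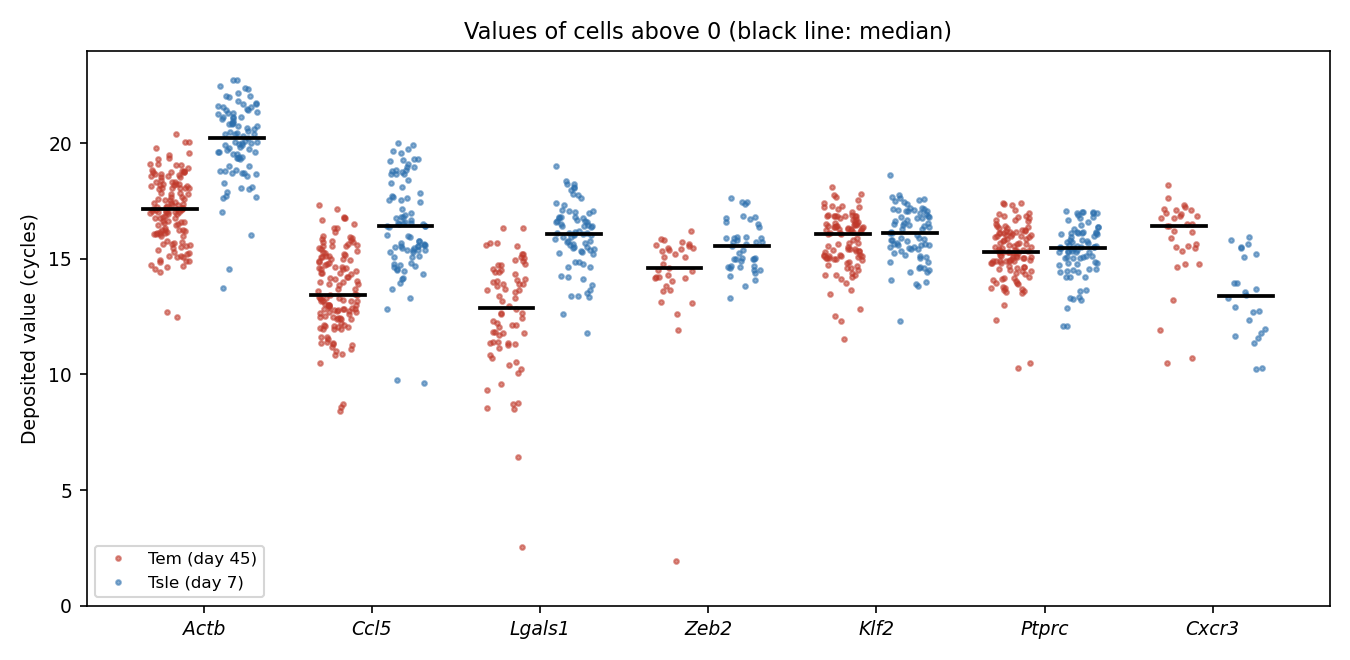
Deposited value in cycles (y axis) of every cell above 0 for 7 genes (x axis), with Tem in red and day 7 Tsle in blue and cells at 0 left out; black lines are medians. Medians of Actb, Ccl5 and Lgals1 are about 3 cycles lower in Tem, Klf2 and Ptprc lie level, and Cxcr3 is higher in Tem.

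Joint detection showed how these features combined in single cells. In Tem, 52 of 136 cells had Tcf7 without Zeb2 (38.2%), 20 had Zeb2 without Tcf7 (14.7%), 13 had both (9.56%) and 51 had neither (37.5%). In Tsle the same classes held 2, 42, 1 and 44 of 89 cells. With Tcf7 in 3 Tsle cells, the Tsle classes say nothing on how Tcf7 and Zeb2 combine there. Within Tem, Zeb2 was found in 20.0% of cells with Tcf7 (11.1 to 31.8%) and 28.2% of cells without it (18.1 to 40.1%), with overlapping intervals. Tem cells with Tcf7 had a median of 12 assays above 0, and those without it 10.

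Tem cells with and without Tcf7 were compared for other transcripts. Lgals1 was detected in 37 of 65 Tem cells with Tcf7 (56.9%, 44.0 to 69.2%) and 35 of 71 without it (49.3%, 37.2 to 61.4%). Klf2 was found in 70.8% and 77.5%, Il7r in 16.9% and 14.1%, and Gzmb in 2 of 65 and 5 of 71. Klrg1 was found in 3 cells of each class. None of these 5 genes had intervals that separated Tem cells with Tcf7 from those without it.

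Cxcr3 and Zeb2 were seldom found in the same Tem cell. Zeb2 was detected in 2 of 32 Tem cells with Cxcr3 (6.25%, 0.766 to 20.8%) and 31 of 104 without it (29.8%, 21.2 to 39.6%), although cells with Cxcr3 had more assays above 0 (median 12 against 10). The counts were 1 of 11 against 17 of 59 in the first Tem stretch and 1 of 21 against 14 of 45 in the second. Among the pairs examined this was the only one whose Tem intervals did not overlap, and they lay close, at 20.8% and 21.2%. In Tsle, Zeb2 was found in 9 of 24 cells with Cxcr3 (37.5%, 18.8 to 59.4%) and 34 of 65 without it (52.3%, 39.5 to 64.9%). Day 7 memory precursors went the other way, with Zeb2 in 25.6% of cells with Cxcr3 and 8.70% without it. Central memory cells had Zeb2 in 7.06% and 9.43%. Il7r and Klrg1 were found together in 0 of 136 Tem cells and 1 of 89 Tsle cells, and Gzmb and Ccl4 together in none of either. At least 1 gene of each of these pairs was rare, so the counts say nothing on whether the genes exclude each other.

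**Figure D4:**
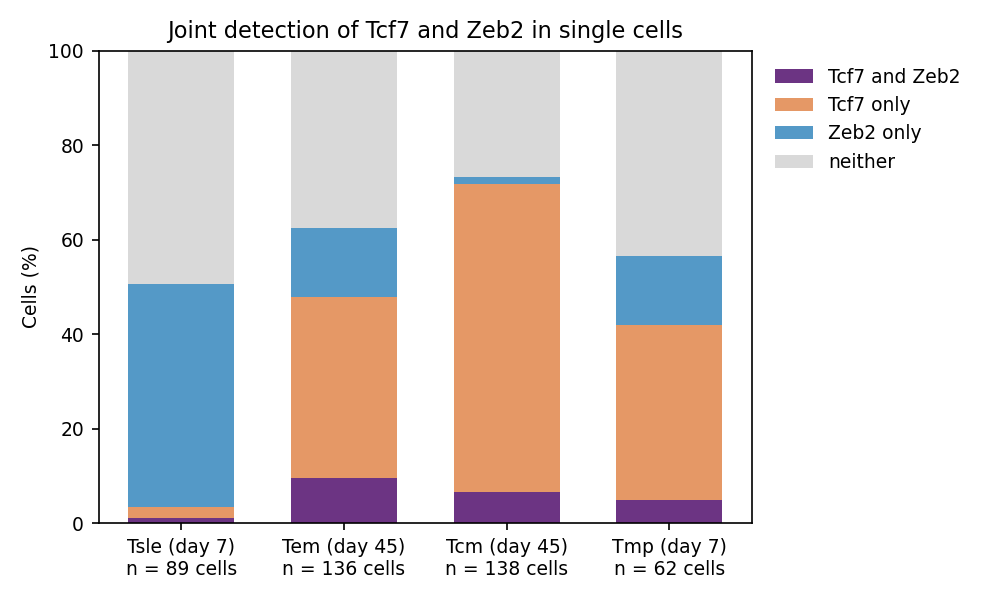
Percent of cells (y axis) with Tcf7 and Zeb2, Tcf7 only, Zeb2 only or neither above 0 in day 7 Tsle, Tem, central memory (Tcm) and day 7 memory precursor (Tmp) cells (x axis, with cell numbers). Tcf7 without Zeb2 makes up 38.2% of Tem cells and 2.25% of Tsle cells.

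The nearest comparison in the series is that of central memory cells (Tcm, 138 cells, day 45) with memory precursors (Tmp, 62 cells, day 7), in which the day also changes from 7 to 45. None of the 4 populations is shared between these comparisons. Of 95 rows, 6 were at least 20 points higher in Tcm than in Tmp (6.32%) and 0 lower (0%). Tcf7 was higher at day 45 on both sides, by 44.4 points in Tem over Tsle and by 29.8 points in Tcm over Tmp, where the shares were 71.7% and 41.9%. Il7r was 13.2 points higher in Tem and 33.5 points higher in Tcm, and Id2 15.0 and 23.7 points. The Id2 values in Tem were weak (median 5.03 cycles), and its difference from Tsle turned sign between pairings (-3.61 to 27.1 points). Lower at day 45 on both sides in the pooled cells were, among others, Zeb2 (-24.0 and -11.4 points) and Klrc1 (-12.2 and -15.0 points). Between pairings the Tem minus Tsle difference of Klrc1 turned sign (-21.7 to 7.16 points), while that of Zeb2 stayed negative (-32.3 to -8.77). The Tcm and Tmp columns were not cut into stretches, and the Zeb2 intervals of Tcm and Tmp overlapped. Il2rb was higher in Tcm than in Tmp (21.1 points), while its Tem minus Tsle difference was small (-6.38 points), with widely overlapping intervals. These differences between the comparisons were not tested.

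Set beside Tcm, Tem shared with Tsle a low share of cells with Cxcr3 and Il2rb. Cxcr3 was detected in 61.6% of the Tcm cells (52.9 to 69.7%) and 62.9% of Tmp cells (49.7 to 74.8%), and Il2rb in 63.0% (54.4 to 71.1%) and 41.9% (29.5 to 55.2%). Lgals1 placed Tem elsewhere, its share of 52.9% lying next to that of Tcm (54.3%, 45.7 to 62.8%) and Tmp (59.7%, 46.4 to 71.9%). Tsle lay above them when its cells were pooled (85.4%), but the share of the second Tsle stretch lay within the Tmp interval. Klrg1 was found in 2 of 138 Tcm cells and 0 of 62 Tmp cells (up to 4.84%). Tcm cells had a median of 17 assays above 0 and Tmp cells 14, against 11 in Tem, and its part in these differences was not tested.

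**Figure D5:**
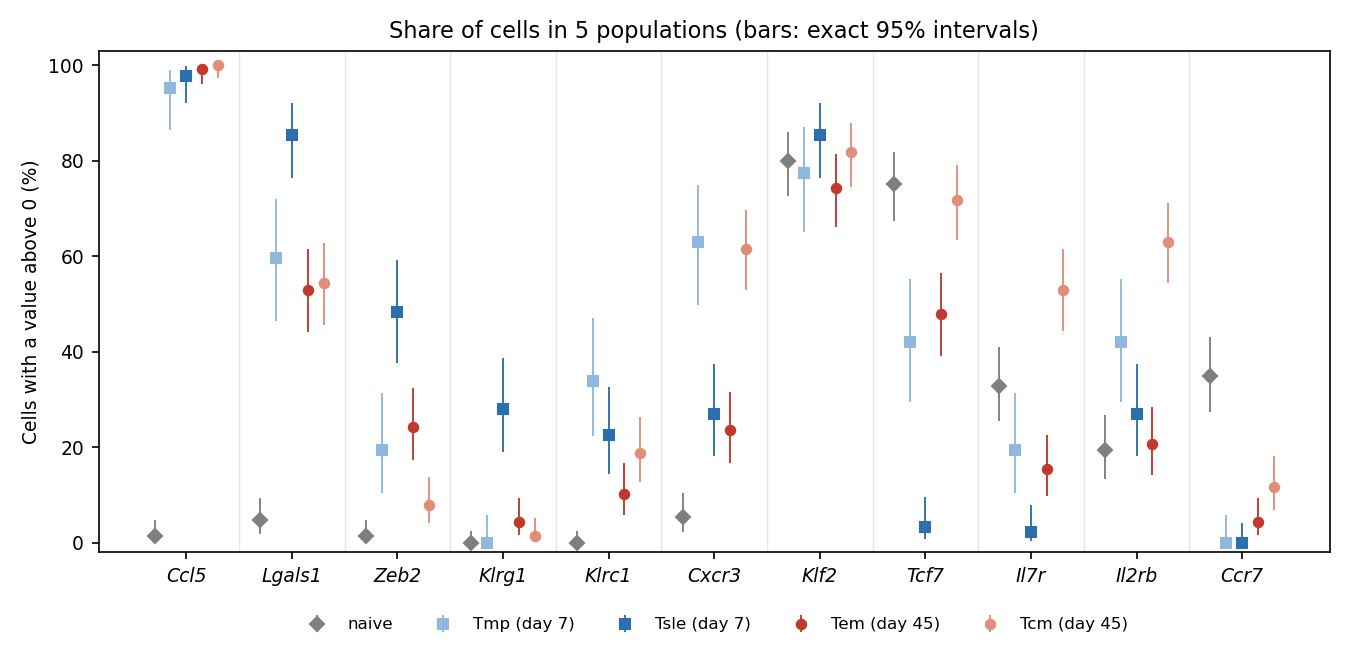
Share of cells with a value above 0 (y axis, percent) for 11 genes (x axis) in naive, day 7 Tmp, day 7 Tsle, Tem and Tcm cells; bars are exact 95% intervals. Tem lies with Tsle for Cxcr3 and Il2rb and near Tcm and Tmp for Lgals1, and Tcf7 is at 47.8% in Tem and 3.37% in Tsle.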

How the data were processed

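Single cells were sorted into a reverse transcription and preamplification mix with pooled TaqMan assays, amplified over 18 cycles and read on Fluidigm BioMark arrays after a 5-fold dilution, per the labels' protocols. The authors deposited 1 table of 95 assay rows and 1449 cells, not normalized per the labels, whose values read as log2 amounts in cycles with 0 for no detection; their derivation from Ct is not stated in those sources. The scale was read from the values: R18s and Actb were highest, and the range above 0 was 1.01 to 35.0. A weak late signal counts as detected, which limits the reading of values under about 12 cycles. Of 95 rows, 93 were matched by accession to RefSeq (GRCm38.p6), used for names only. No coordinates are given.

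Shares, medians over at least 10 detected cells and joint counts were computed with Python 3.11.15, numpy 2.4.6 and scipy 1.17.1, and figures with matplotlib 3.10.9. Precision is set by 136 and 89 cells. The text names assays at least 20 points or 1 cycle apart, those in at least 50% of both populations, and members of fixed lists. The members and lists were chosen with earlier results of these data known. Simulated data served only to check the calculation: 20 of 95 rows were moved by far more than 20 points, without column stretches. The share rule called those 20 and 0 of the others, which gives no error rate for the measured cells. Alternatives covered detection limits, filters on cells, column stretches and centring. Some measured genes are not reported here, though they stay in the counts over all rows.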

Additional observations from a re-analysis of the deposited data

Results flagged for a closer look

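With the limit set at 10 points on each side, the pooled shares of 3 genes differed in opposite directions between day 7 and day 45 in the effector and the central populations. Zfp281 differed by -13.5 points in share between Tem and Tsle and by 18.2 points between Tcm and Tmp. Eomes differed by -11.0 and 14.5 points, and Ifngr1 by -12.3 and 15.9 points. Between pairings of column stretches, the Tem minus Tsle difference turned sign for Zfp281 (-22.9 to 3.97 points) and Ifngr1 (-25.95 to 12.4) and stayed negative for Eomes (-14.0 to -6.22). Zfp281 and Ifngr1 also fell by at least 20 points from the first to the second Tsle stretch. The difference between the comparisons was not tested. Tem cells had fewer assays above 0 than Tsle cells (median 11 against 13) and Tcm cells more than Tmp cells (17 against 14), and the part of this in the 3 genes was not tested.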

How the results depend on the processing

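No paired analysis was possible because each population is 1 sample. Tcf7 was at least 20 points higher in Tem under all 11 ways of choosing cells or detection (26.8 to 59.1 points), while Lgals1 was past -20 points in 9 of them, Zeb2 in 9 and Klrg1 in 7. The count of assays at least 20 points higher, 1 as reported, was 2 in the earlier columns of both populations and 2 between the first stretches. The count at least 20 points lower, 4 as reported, was 8 between the first stretches and 1 for either Tem stretch against the second Tsle stretch, and 1 at a limit of 30 points.

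The count of assays at least 1 cycle higher in median, 1 as reported, was 2 with detection above 12, 3 in the earlier and 2 in the later columns, 3 between the first and 0 between the second stretches, 9 when centred on Actb and Gapdh, 4 when centred on R18s and 3 as a mean over all cells with undetected ones at 0. The count at least 1 cycle lower, 5 as reported, was 3 with detection above 12, 3 in the earlier and 8 in the later columns, 3 between the first stretches, 9 for the second Tem against the first Tsle stretch, 2 when centred on Actb and Gapdh and 21 as a mean over all cells. The median of Thy1 changed sign, to 1.72 cycles in the earlier columns, 1.21 between the first stretches, and 0.91 and 0.81 when centred on Actb and Gapdh or on R18s. The cause was not tested. The stretches were chosen after seeing the data. At 89 and 136 cells, an assay above 0 in no cell could still be detected in up to 3.37% and 2.21% of cells, and cells that hold a transcript below detection are not limited by this.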
